A study of Mus musculus with 26 samples.

Results

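The genes described here are 40 energy metabolism genes of the mouse testis, chosen by symbol: isoforms of glycolysis, lactate and pyruvate metabolism, the respiratory chain and metabolite transport that male germ cells make, together with their somatic partners and a set of enzymes with no such partner. All 40 symbols were found among the 51124 genes of the deposited expression table, and all 40 passed a filter on low values that left 23782 genes for testing. The study asked what PIWI slicing does to a target mRNA in the testis, with knock-in mice, made from B6D2F1/J hybrid embryos, whose *Ythdc2* gene carries sites for the pachytene piRNA piR-A in its last exon. Ribosomal RNA-depleted total RNA from whole adult testes of 3 genotypes was sequenced, with 2 libraries each: wild type (N1 and N2), homozygous *10xPerf* with 10 sites fully complementary to piR-A (N3 and N4), and homozygous *10xBulge* with 10 sites mismatched to piR-A around the cleavage position (N5 and N6). Each library came from a different mouse. The lines were kept by crossing homozygous animals, and the study's methods do not give the strain of the wild-type mice. Values are the authors' normalized read counts, scaled per library so that genotypes can be compared. Levels of different genes are compared per kilobase of the longest annotated transcript, unless counts or log2 ratios are named.

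Male germ cells replace much of their energy metabolism with isoforms of their own. Several of these are autosomal retrogenes of X-linked genes, among them *Pgk2* (from *Pgk1*) and *Pdha2* (from *Pdha1*), and they are made when the X chromosome is silenced during meiosis. Others, such as *Gapdhs*, are made after meiosis and end up bound to the fibrous sheath of the sperm tail, where glycolysis fuels motility, while Sertoli cells take up glucose and hand lactate to spermatocytes and spermatids.

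Library totals came to between 39754100 and 59804300 normalized counts, and the smallest steps between values put the depth at roughly 41104000 to 61590300 reads, so that 3 reads are worth between 2.73 and 3.63 normalized counts. *Ythdc2*, the targeted gene, had 827 and 2412 normalized counts in the wild-type libraries, 1334 and 1136 in *10xPerf*, but 1202 and 2458 in *10xBulge*, with the genotypes overlapping, so that its level does not check the labels. The testis was recognised by its spermatid markers (the protamines, transition proteins and 6 others), which summed to 691383 and 499320.0 normalized counts in the wild-type libraries, to 596389 and 663839 in *10xPerf*, but to 1739 and 1053 in *10xBulge*. All 10 were lower in *10xBulge*, with a median log2 fold change of -8.33, against a median of -0.026 over all genes tested. Of 10 spermatocyte markers 1 rose and 9 were not called, with sums between 17999.8 and 47694 normalized counts across the 6 libraries. Macrophage markers were called higher in 6 of 6 cases, Leydig cell markers in 5 of 7, Sertoli cell markers in 4 of 8 and spermatogonial markers in 1 of 8. No member of these lists was at 0 in any group. Of all genes tested 11.4% were called higher and 23.0% lower (limma, adjusted p under 0.1). The spermatocyte and spermatogonial counts are near the share called higher. In *10xPerf* no marker of these lists was called. In *10xBulge* the markers that were called moved in the same libraries as the changes described below. Their part in each change was not tested.

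The 40 genes changed in both directions in *10xBulge* testes: 8 were lower and 11 higher than in wild type, and 21 were not called (limma, adjusted p under 0.1). Of all genes tested 23.0% were called lower and 11.4% higher, so the share of members that were lower is near that of the whole transcriptome and the share that were higher is above it. The directions separated by group. Of 13 testis-enriched isoforms, 5 were lower, 1 was higher and 7 were not called, with a median log2 fold change of -0.76. Of 13 somatic partners, none was lower, 6 were higher and 7 were not called, with a median of 0.80. In whole-testis RNA, fewer cells of a type and less RNA per cell cannot be told apart. The lower calls were the firmer ones: 7 of the 8 were made whichever library was left out, *Eno4* being the exception. Of the 11 higher calls only that of *Pdha1* was. The number kept was 3 without wild-type library N1, 6 without N2, 4 without *10xBulge* library N5 and 10 without N6, where 2.81%, 9.40%, 7.56% and 12.5% of all genes were called higher. Over all genes, too, the number called lower varied less with a library left out than the number called higher. The firmer lower calls are therefore not particular to the members. Scaling by library totals, which moved the median of all genes to 0.35, gave 17 members higher and 8 lower. It also raised the share of all genes called higher to 24.3%, with 20.1% lower.

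**Figure D1:**
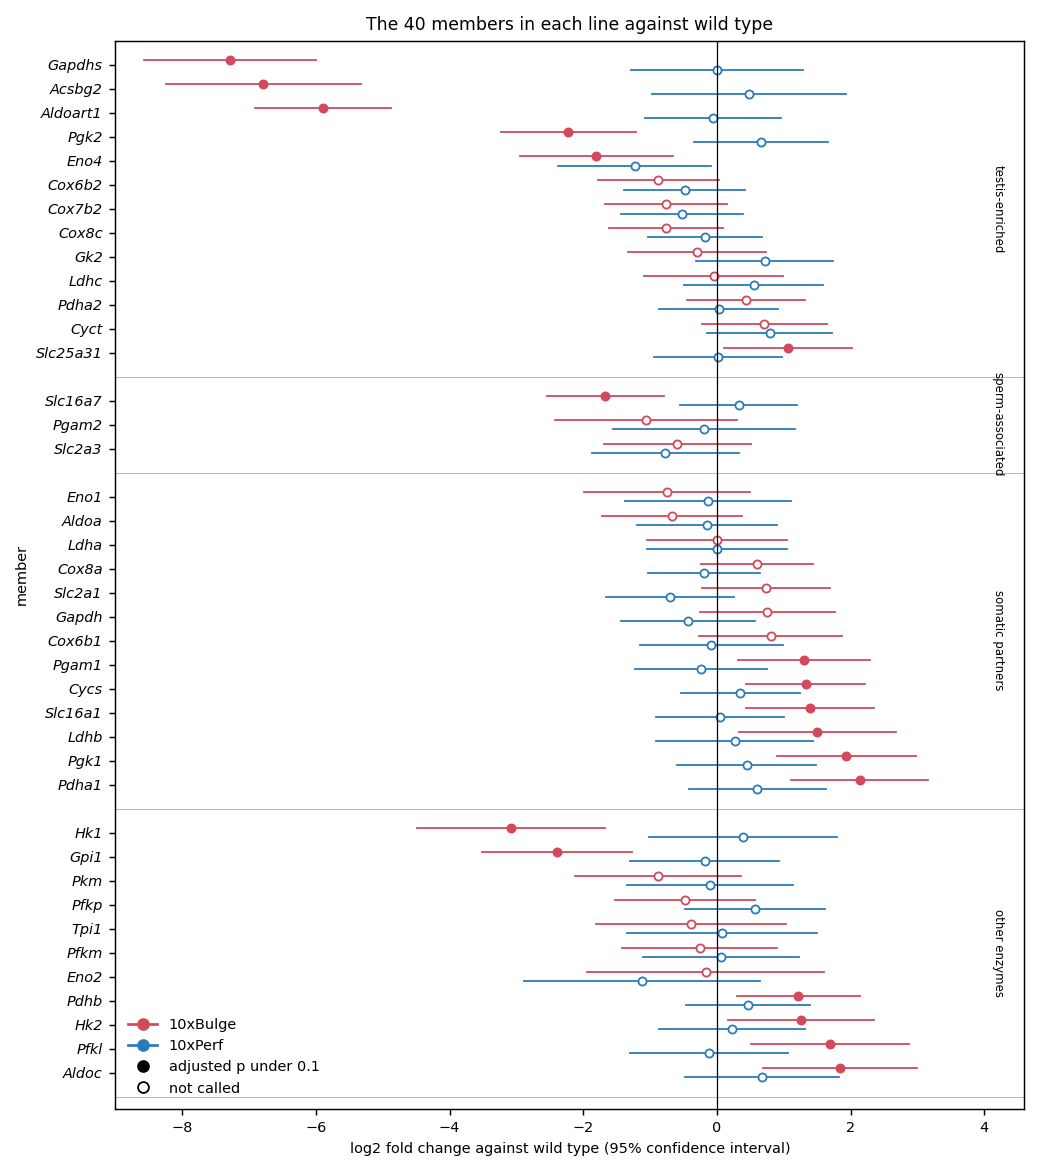
The horizontal axis gives the log2 fold change of each of the 40 members against wild type with its 95% confidence interval, in *10xBulge* (red) and *10xPerf* (blue), grouped by role and with filled points for an adjusted p under 0.1. In *10xBulge* the 3 lowest points are *Gapdhs*, *Acsbg2* and *Aldoart1*, the calls among somatic partners are all to the right of 0, and no point is filled in *10xPerf*.

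Among the germ cell glycolytic enzymes, the isoforms of the middle of the pathway fell furthest. *Gapdhs*, the sperm glyceraldehyde-3-phosphate dehydrogenase, had 92965 and 64667 normalized counts in the wild-type libraries, 71827 and 83149.5 in *10xPerf*, against 896 and 273 in *10xBulge*. Both *10xBulge* libraries lay far below the other 4, and the mean of wild type was 135 times that of *10xBulge* (log2 fold change -7.29 ± 0.57 (SE), adjusted p = 1.88e-05). *Aldoart1*, a retrogene aldolase, was nearly constant in the other genotypes, at 4288 and 4361 in wild type and 4078 and 4256 in *10xPerf*. It fell to 106 and 48.2 in *10xBulge*, again without overlap (log2 fold change -5.90 ± 0.45 (SE), adjusted p = 1.71e-05). *Pgk2*, the retrogene phosphoglycerate kinase, fell less. Its levels were 18524 and 27021 in wild type, 29128 and 42849 in *10xPerf*, then 5877 and 3904 in *10xBulge*, and the wild-type mean was 4.66 times the *10xBulge* mean (log2 fold change -2.22 ± 0.45 (SE), adjusted p = 0.00564). *Eno4*, the enolase of the sperm tail, was the one gene of the group that was also low in *10xPerf*: 3373 and 2922 in wild type, 1325 and 1356 in *10xPerf*, but 1509 and 535 in *10xBulge*. The wild-type libraries were the highest 2 of the 6, and the *10xBulge* libraries lay on either side of the *10xPerf* pair. Its call against wild type (log2 fold change -1.80 ± 0.51 (SE), adjusted p = 0.0289) was lost without N1 (adjusted p = 0.16) and without N6 (adjusted p = 0.117).

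Lactate dehydrogenase C, which makes the germ cell isozyme and is the most highly expressed member per kilobase after *Gapdhs* in wild type, did not follow. *Ldhc* stood at 60853 and 83439 in the wild-type libraries, 93571 and 116841 in *10xPerf*, against 79447 and 59873 in *10xBulge*. The *10xBulge* and wild-type ranges overlapped, and the log2 fold change was -0.047 ± 0.46 (SE), adjusted p = 0.955, with a 95% interval of -1.09 to 0.99 that leaves room for a change of either sign. *Pdha2*, the autosomal E1 alpha subunit of pyruvate dehydrogenase, was at 6832 and 5653 in wild type, 5679 and 7026 in *10xPerf*, then 9488 and 7388 in *10xBulge*. Its *10xBulge* libraries were the highest of the 6, by a margin that did not pass the test (log2 fold change 0.43 ± 0.39 (SE), adjusted p = 0.456).

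The promoters of these genes are shown because the cyclic AMP response element, TGACGTCA, is the element through which the CREM factor acts on germ cell genes, and because *Ldhc* and *Gapdhs* share its core but not their response. Sequences are from RefSeq for GRCm38.p6, from 250 bases before to 50 after each annotated start, and both strands were searched. A promoter was found for 10 of the 13 testis-enriched isoforms and all 13 somatic partners. Of the matches, those of the full element and 1 of the core each for *Ldhc* and *Gapdhs* are shown. Windows read 5′ to 3′ on the gene's own strand, with the full element or its core TGACG in capitals:
Ldhc chr7:46861193-46861215 (plus strand): cttgcgtgcTGACGttgactttg
Gapdhs chr7:30743632-30743652 (minus strand): gtcgagacgTGACGtggtcct
Ldha chr7:46845783-46845808 (plus strand): ctcccactcTGACGTCAgcgcggagc
Cycs chr6:50566722-50566747 (minus strand): gccagagggTGACGTCAcgcacgtcc

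The full element was in none of the 10 testis-enriched promoters, in those of 2 of 13 somatic partners (*Ldha* and *Cycs*) and in 2.03% of 27025 genes with a promoter in the table. Its core, which lies within the full element, was in 3 of 10 testis-enriched promoters (*Ldhc*, *Gapdhs* and *Cox7b2*), in 5 of 13 partner promoters and in 23.1% of all genes. The GC box GGGCGG was in 4 of 10, 8 of 13 and 38.2%, and TATAAA in 2 of 10, 1 of 13 and 15.7%. These are matches of letters in a window and not binding sites.

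In the respiratory chain the testis isoforms held nearer to their wild-type levels. *Cyct*, the testis cytochrome c that carries electrons to cytochrome c oxidase, was at 790.4 and 1421 in wild type, 1817 and 1852 in *10xPerf*, but 1823 and 1642 in *10xBulge*. Wild-type library N1 was the lowest of the 6, and the log2 fold change of 0.71 in *10xBulge* was not called (adjusted p = 0.243). The 3 testis isoforms of cytochrome c oxidase subunits all leaned lower without passing the test. *Cox6b2* was at 16366 and 12821 in wild type and 8419.5 and 7382 in *10xBulge* (log2 fold change -0.88 ± 0.40 (SE), adjusted p = 0.141). *Cox8c* was at 13037 and 11497 and 7202 and 7227 (log2 fold change -0.76 ± 0.38 (SE), adjusted p = 0.171), and *Cox7b2* at 4999.6 and 4967 and 2391 and 3604 (log2 fold change -0.76 ± 0.40 (SE), adjusted p = 0.195). In each of the 3, both *10xBulge* libraries lay below both wild-type libraries, and *10xPerf* lay between them or overlapped with *10xBulge*. Of the 40 members, 30 did not overlap wild type in *10xBulge* and 17 did not in *10xPerf*, where none was called. The share of all genes without overlap was not counted. *Slc25a31*, the germ cell ADP/ATP carrier that exchanges nucleotides across the inner mitochondrial membrane, went the other way, from 2291 and 2976 in wild type and 2138 and 3273 in *10xPerf* to 4468 and 6653 in *10xBulge*. It was the only testis-enriched isoform called higher (log2 fold change 1.06 ± 0.42 (SE), adjusted p = 0.0972), with both *10xBulge* libraries above the other 4, but the call lay at the threshold and was lost without N1, N2 or N6 (adjusted p = 0.307, 0.134 and 0.271).

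The remaining testis-enriched isoforms, a pair from lipid and glycerol metabolism, behaved differently from each other. *Acsbg2*, an acyl-CoA synthetase of the bubblegum family, was at 7771 and 9320.2 in wild type, 10048 and 14028 in *10xPerf*, against 165 and 34.8 in *10xBulge*. The wild-type mean was 85.6 times the *10xBulge* mean (log2 fold change -6.79 ± 0.65 (SE), adjusted p = 5.59e-05), second only to *Gapdhs* among the members. *Gk2*, a retrogene glycerol kinase, had 10148 and 19326 in wild type, 19720.1 and 26752 in *10xPerf*, then 12218 and 10625 in *10xBulge*, and its *10xBulge* libraries fell within the wild-type range (log2 fold change -0.30 ± 0.46 (SE), adjusted p = 0.672, 95% interval -1.33 to 0.73). Some isoforms were also grouped by the stage at which each was taken to be first made, while *Eno4*, *Cox6b2*, *Cox7b2*, *Cox8c* and *Acsbg2* were given no stage. The 5 listed under spermatocytes (*Pgk2*, *Ldhc*, *Pdha2*, *Cyct* and *Slc25a31*) had 1 lower, 1 higher and 3 not called, with a median of 0.43. Of the 3 listed under spermatids, *Gapdhs* and *Aldoart1* were lower and *Gk2* was not called, with a median of -5.90. *Gk2* did not fall as the spermatid markers did, and the stages given to these genes were not tested here. The difference between these small groups was not tested.

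The 3 genes made in other tissues that sperm also rely on all had lower means in *10xBulge*, and 1 passed the test. *Slc16a7*, the high-affinity monocarboxylate transporter MCT2, was at 18543 and 18547 in wild type, 23546 and 22905 in *10xPerf*, but 5259.6 and 6440.2 in *10xBulge*. Its 3 genotypes did not overlap, and its log2 fold change was -1.67 ± 0.39 (SE), adjusted p = 0.012. *Pgam2*, the muscle phosphoglycerate mutase, ranged from 36249 and 16371 in wild type to 20351 and 6687 in *10xBulge*, with N5 above one of the wild-type libraries (log2 fold change -1.06 ± 0.61 (SE), adjusted p = 0.229). *Slc2a3*, the glucose transporter GLUT3, had 142271 and 79909.5 in wild type, 52419 and 74146 in *10xPerf*, against 67914 and 73665 in *10xBulge*. Its wild-type libraries were the highest but far apart, and its change was not called (log2 fold change -0.59 ± 0.49 (SE), adjusted p = 0.405).

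Among the somatic partners the largest increases were those of the X-linked genes. *Pdha1*, the E1 alpha subunit of somatic cells, was at 168 and 290.4 in wild type, 264 and 426 in *10xPerf*, then 1067 and 894 in *10xBulge*. Its *10xBulge* mean was 4.28 times that of wild type (log2 fold change 2.14 ± 0.45 (SE), adjusted p = 0.00764). *Pgk1* was at 522 and 631 in wild type, 532 and 1144 in *10xPerf*, but 2504 and 1919 in *10xBulge*, 3.84 times wild type in the mean (log2 fold change 1.93 ± 0.46 (SE), adjusted p = 0.0139, and adjusted p = 0.102 without N1). For both genes the *10xBulge* libraries were the highest 2 of the 6. *Cycs*, somatic cytochrome c, rose from 900.5 and 1331 to 3100.0 and 2443 (log2 fold change 1.33 ± 0.39 (SE), adjusted p = 0.0361). *Slc16a1*, the monocarboxylate transporter MCT1, rose from 1998 and 2458 to 5658 and 6020.0 (log2 fold change 1.40 ± 0.42 (SE), adjusted p = 0.04), and *Pgam1*, the widely made phosphoglycerate mutase, from 3832 and 3067 to 10714 and 6677 (log2 fold change 1.30 ± 0.44 (SE), adjusted p = 0.0566). *Ldhb*, the heart-type subunit of lactate dehydrogenase, rose from 2418 and 2969 to 12157 and 4728 (log2 fold change 1.50 ± 0.52 (SE), adjusted p = 0.0636), with most of the rise in N5: without that library the log2 fold change was 0.82 (adjusted p = 0.272).

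Another 4 partners had higher means in *10xBulge* that did not pass the test, and 3 did not move in that direction. *Gapdh* was at 8963 and 5971 in wild type and 16133 and 9440.1 in *10xBulge* (log2 fold change 0.75 ± 0.44 (SE), adjusted p = 0.245). *Slc2a1*, the glucose transporter GLUT1, was at 759.8 and 686 and 1301 and 1103 (log2 fold change 0.73 ± 0.42 (SE), adjusted p = 0.236), *Cox6b1* at 1428 and 1735 and 2912 and 2591 (log2 fold change 0.80 ± 0.47 (SE), adjusted p = 0.244), and *Cox8a* at 907 and 977 and 1489 and 1362 (log2 fold change 0.60 ± 0.37 (SE), adjusted p = 0.27). In all 4, neither *10xBulge* library overlapped wild type, but the share of all genes without overlap was not counted. All 4 passed the test when scaled by library totals, a setting in which 24.3% of all genes were called higher. *Ldha*, the muscle-type lactate dehydrogenase subunit, was at 44311 and 36331 in wild type and 50510.4 and 31824 in *10xBulge*, with overlap (95% interval of the log2 fold change -1.05 to 1.05). *Eno1* was at 32116 and 15190.2 and 20145 and 8629 (log2 fold change -0.74 ± 0.55 (SE), adjusted p = 0.353), and *Aldoa* at 30317 and 21375 and 20490.3 and 12471 (log2 fold change -0.67 ± 0.46 (SE), adjusted p = 0.321). The table holds a second, lower gene entry with the symbol *Aldoa*, at 1191 and 951 in wild type and 537 and 379 in *10xBulge*. It was called lower (log2 fold change -1.24 ± 0.41 (SE), adjusted p = 0.053) and was not counted among the 40 or the 13 partners. *Gapdh*, *Cycs* and *Ldha* have processed copies elsewhere in the genome, and how reads were shared with those copies was not tested.

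Among 11 enzymes with no germ cell partner in the set, 4 were higher, 2 lower and 5 not called, beside the 11.4% of all genes called higher and 23.0% called lower. The lower genes were the enzymes of the first steps of glycolysis. *Hk1*, the hexokinase from which germ cells make transcripts with their own first exon, was at 53582 and 48422 in wild type, 66154 and 66801 in *10xPerf*, against 12231 and 2970.4 in *10xBulge* (log2 fold change -3.08 ± 0.62 (SE), adjusted p = 0.00584). *Gpi1*, glucose-6-phosphate isomerase, was at 33269 and 18160.2, 20583 and 22689.5 and 6692 and 3275 (log2 fold change -2.39 ± 0.50 (SE), adjusted p = 0.00674). For *Hk1* and *Gpi1* both *10xBulge* libraries lay below the other 4, and N6 below N5. Of the higher genes 3 encode other glycolytic enzymes, and of these only *Hk2* is in the same family as *Hk1* or *Gpi1*. *Hk2*, the insulin-responsive hexokinase, was at 1414 and 2429 and 5565 and 3516 (log2 fold change 1.25 ± 0.48 (SE), adjusted p = 0.0882), *Pfkl*, the liver phosphofructokinase, at 1662 and 666 and 4691 and 2478 (log2 fold change 1.70 ± 0.52 (SE), adjusted p = 0.0422), and *Aldoc*, the brain aldolase, at 389 and 280.4 and 1623 and 863 (log2 fold change 1.84 ± 0.51 (SE), adjusted p = 0.0273). *Pdhb*, the E1 beta subunit that serves both *Pdha1* and *Pdha2*, was at 3653 and 5411 and 10806 and 9899 (log2 fold change 1.22 ± 0.41 (SE), adjusted p = 0.0572). The 5 others, *Pkm*, *Tpi1*, *Pfkm*, *Pfkp* and *Eno2*, overlapped with wild type and had log2 fold changes between -0.88 (*Pkm*) and -0.17 (*Eno2*). *Pkm*, pyruvate kinase of the M type, was at 21504 and 14537 in wild type and 16590.0 and 5536 in *10xBulge*, and without N5 its log2 fold change was -1.67 (adjusted p = 0.0235).

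**Figure D2:**
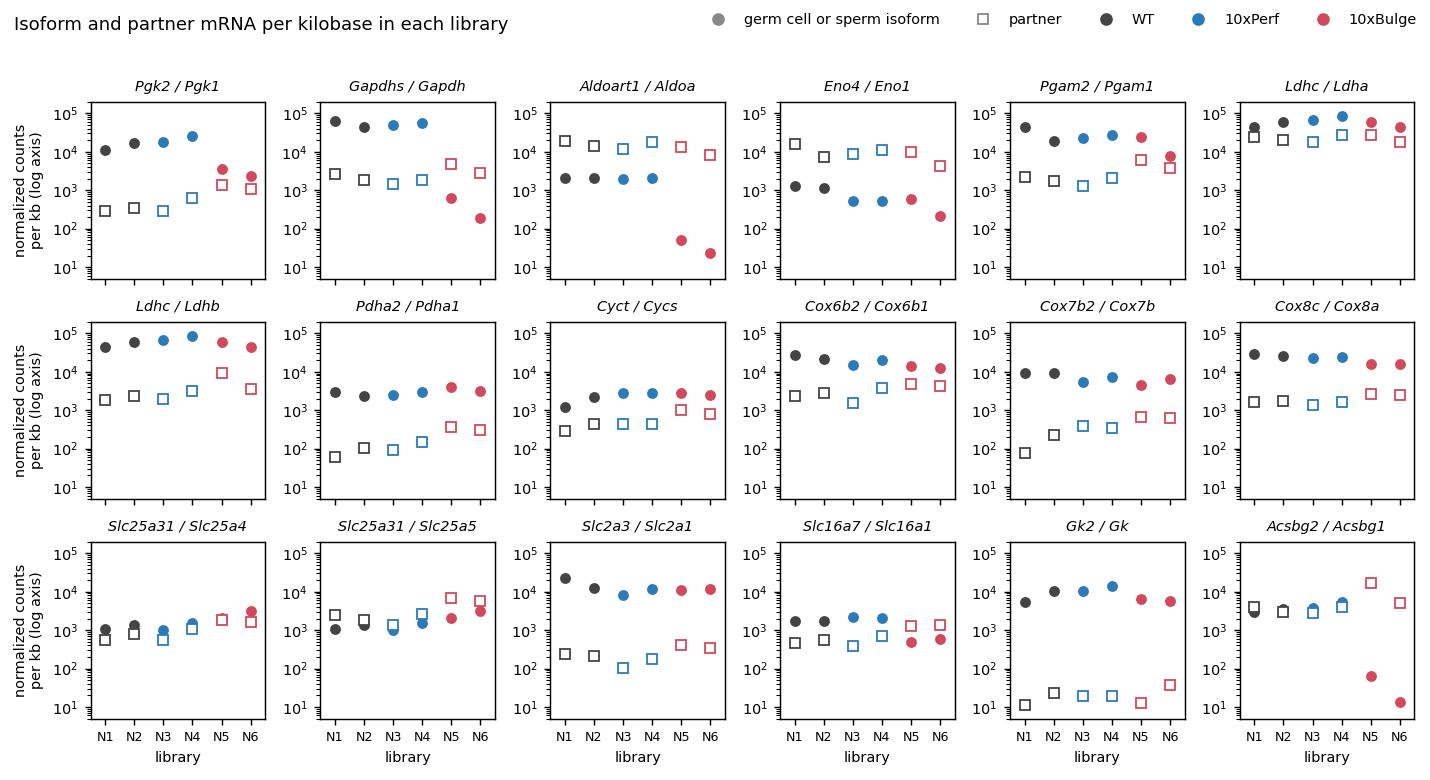
Each panel shows 1 pair, with the normalized counts per kilobase of transcript on a log axis against the 6 libraries, filled circles for the germ cell or sperm isoform and open squares for its partner, coloured by genotype. In the *Gapdhs* and *Slc16a7* panels the circles cross below the squares in N5 and N6, in the *Acsbg2* panel circles and squares lie close together until N5 and N6, and in the *Ldhc* and *Ldha* panel they do not.

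The balance between an isoform and its partner was tested as the change of the log2 ratio within each library, which does not depend on how libraries were scaled. In all 18 pairs the ratio was lower in *10xBulge* than in wild type, by between -8.23 and -0.046 with a median of -1.61, and in 12 of the 18 the change was called. A call of this kind also depends on how the partner moved, so each is read against the share of all genes called lower relative to that partner, which ran from 12.0% to 79.0%. Leaving out a library kept 9 of the 12 calls in every case, and the number called was between 9 and 10. With 2 libraries against 2 the exact two-sided permutation test of a single ratio cannot go below p = 0.333. The adjusted p-values of the ratios below come from the limma fit and can be too small. The partner's own spread between libraries enters every gene of that fit and is pooled as if it had been measured many times.

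In glyceraldehyde-3-phosphate dehydrogenase the forms changed places. Per kilobase, *Gapdhs* made up 95.9 and 96.1% of the pair in wild type, 97.2 and 96.8% in *10xPerf*, but 11.1 and 6.13% in *10xBulge*. The log2 ratio to *Gapdh* changed by -8.04 ± 0.40 (SE), adjusted p = 3.25e-05, where 30.8% of all genes were called lower relative to *Gapdh*. Summed over both genes, the transcript level was 66531 and 46199 normalized counts per kilobase in wild type and 5520.0 and 3058 in *10xBulge*. In phosphoglycerate kinase the germ cell form remained the larger. *Pgk2* made up 97.6 and 98.0% in wild type and 72.5 and 69.5% in *10xBulge*, a change of the log2 ratio of -4.16 ± 0.60 (SE), adjusted p = 3.78e-07, with 68.7% of all genes lower relative to *Pgk1*. Summed over *Pgk1* and *Pgk2* the level was 11678 and 16964 per kilobase in wild type and 4987 and 3452 in *10xBulge*. In the mutase *Pgam2* went from 95.2 and 91.9% of the pair to 80.1 and 67.9% (log2 ratio change -2.36 ± 0.47 (SE), adjusted p = 0.00587, background 46.7%).

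In aldolase both retrogene forms became small. *Aldoart1* and *Aldoart2* made up 5.83 and 8.77% and 39.2 and 33.9% of 4 aldolase genes per kilobase in the wild-type libraries. In *10xBulge* they made up 0.366 and 0.276% and 2.08 and 1.53%, and *Aldoa* 93.4 and 94.6%. The log2 ratio of *Aldoart1* to *Aldoa* changed by -5.22 ± 0.44 (SE), adjusted p = 0.000273, where only 15.6% of all genes were lower relative to *Aldoa*. In enolase *Eno1* dominated throughout, at 86.9 and 83.5% in wild type and 89.8 and 83.8% in *10xBulge*, and the *Eno4* to *Eno1* ratio was not called (log2 ratio change -1.06 ± 0.70 (SE), adjusted p = 0.299, background 12.0%). In hexokinase *Hk1* made up 97.8 and 96.1% of the genes *Hk1*, *Hk2* and *Hk3* in wild type and 73.5 and 51.4% in *10xBulge*, where *Hk2* made up 25.9 and 47.2%. In phosphofructokinase *Pfkm* made up 73.2 and 71.3% in wild type and 60.1 and 52.1% in *10xBulge*, while *Pfkl* went from 15.0 and 8.20% to 29.8 and 37.2%. Shares of hexokinase and phosphofructokinase were not tested.

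In lactate dehydrogenase the germ cell form kept the largest share of transcripts. *Ldhc* made up 62.8 and 73.2% of the 3 subunit genes in wild type, 77.5 and 73.7% in *10xPerf*, then 61.0 and 67.4% in *10xBulge*. Its log2 ratio to *Ldha* changed by -0.046 ± 0.40 (SE), adjusted p = 0.953, with a 95% interval of -0.97 to 0.88 and a background of 20.6%. Its ratio to *Ldhb* was called lower (-1.55 ± 0.65 (SE), adjusted p = 0.0524) at a background of 46.5%, and the call was lost without N1, N2 or N5. *Pdha2* made up 98.0 and 95.9% of the E1 alpha transcripts in wild type and 91.5 and 90.9% in *10xBulge*. That ratio was called lower (-1.71 ± 0.56 (SE), adjusted p = 0.0107) although *Pdha2* itself was not, and 79.0% of all genes were lower relative to *Pdha1*.

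In the respiratory chain the ratios of the 3 oxidase subunits were called lower, and those of *Cyct* and *Slc25a31* were not. Per kilobase, *Cyct* made up 80.7 and 83.6% of cytochrome c transcripts in wild type and 73.7 and 76.2% in *10xBulge*. The change was not called (log2 ratio change -0.62 ± 0.40 (SE), limma adjusted p = 0.228, background 53.3%). In counts the ratio of *Cyct* to *Cycs* was 0.88 and 1.07 in wild type and 0.59 and 0.67 in *10xBulge*. The log2 ratio of *Cox6b2* to *Cox6b1* was 3.52 and 2.88 in wild type and 1.53 and 1.51 in *10xBulge* (change -1.68 ± 0.69 (SE), adjusted p = 0.058, background 28.9%, lost without any 1 of the 4 libraries). That of *Cox8c* to *Cox8a* was 3.84 and 3.56 and 2.27 and 2.41 (change -1.36 ± 0.35 (SE), adjusted p = 0.0186, background 32.3%). *Cox7b2* against the X-linked *Cox7b* changed by -3.04 ± 0.78 (SE), adjusted p = 0.000351 at a background of 73.3%, and *Cox7b* itself rose from 77.0 and 227 to 657 and 636 normalized counts. *Slc25a31* rose alongside the carriers it is paired with. *Slc25a4* was at 1079 and 1566 in wild type and 3590.3 and 3212 in *10xBulge* (log2 fold change 1.38 ± 0.44 (SE), adjusted p = 0.0474), and the X-linked *Slc25a5* at 3007 and 2276 and 8717 and 7287 (log2 fold change 1.61 ± 0.45 (SE), adjusted p = 0.0283). Neither ratio was called, at -0.32 ± 0.57 (SE), adjusted p = 0.667 (background 49.7%) and -0.54 ± 0.53 (SE), adjusted p = 0.407 (background 54.5%). The summed level of the 3 carriers was 4062 and 4048 per kilobase in wild type, 2904 and 5296 in *10xPerf*, but 10995 and 10672 in *10xBulge*.

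Among transporters, the monocarboxylate pair changed places per kilobase. In counts *Slc16a7* was 9.28 and 7.55 times *Slc16a1* in wild type, and 0.93 and 1.07 times in *10xBulge*. The exchange thus rests on the transcript lengths used, 10981 and 4426 bases. *Slc16a7* made up 74.7 and 70.9% of 3 lactate transporter genes per kilobase in wild type and 24.5 and 28.3% in *10xBulge*, and *Slc16a1* 20.0 and 23.3% and 65.3 and 65.6%. The log2 ratio of the pair changed by -3.07 ± 0.58 (SE), adjusted p = 0.000238 at a background of 50.8%. *Slc2a3* kept 96.5 and 97.2% of the glucose transporter pair in *10xBulge*, against 99.0 and 98.4% in wild type (log2 ratio change -1.32 ± 0.47 (SE), adjusted p = 0.0762, background 30.3%), and that call was lost without any 1 of the 4 libraries. *Acsbg2* against *Acsbg1* gave the lowest ratio of all, -8.23 ± 0.71 (SE), adjusted p = 9.81e-09, at a background of 36.4%. *Acsbg1* was at 11373 and 8467 in wild type and 48566 and 14683 in *10xBulge*, the rise lying mostly in N5 (log2 fold change 1.44 ± 0.58 (SE), adjusted p = 0.0985, and 0.58 without N5). *Gk2* against the X-linked *Gk* was not called (-0.75 ± 1.06 (SE), adjusted p = 0.854, background 17.7%), with *Gk* at 49.3 and 98.4 in wild type and 56.6 and 161 in *10xBulge*.

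**Figure D3:**
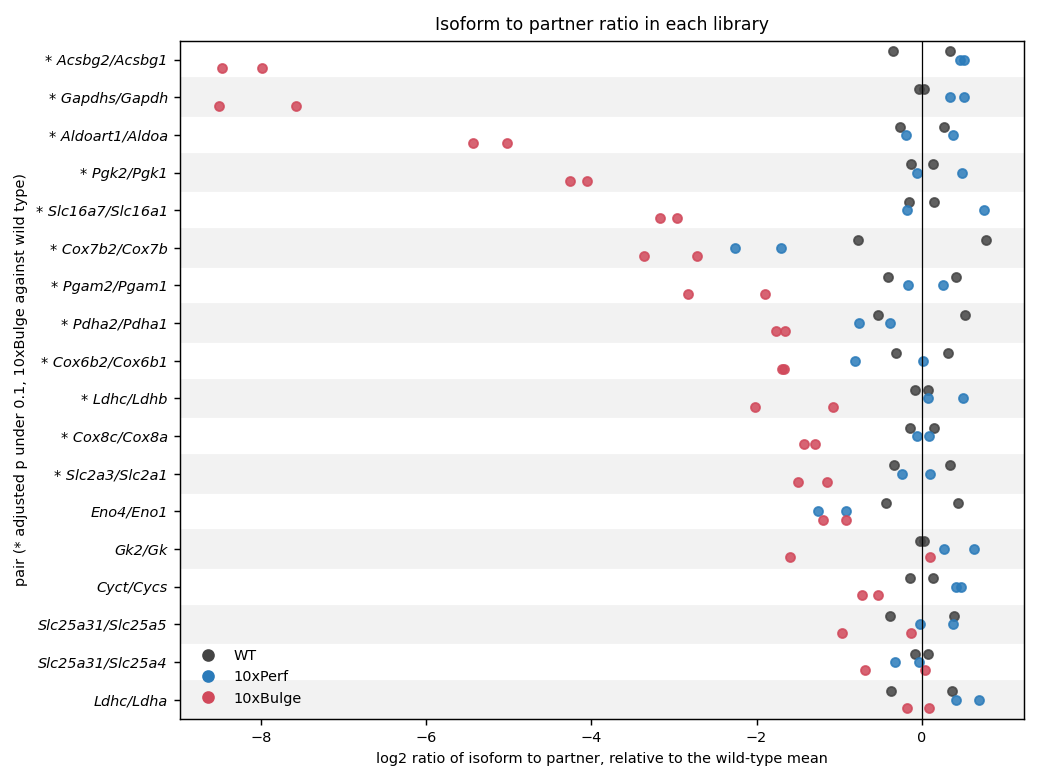
The horizontal axis gives the log2 ratio of isoform to partner in each library, relative to the mean of the wild-type libraries, for 18 pairs ordered by the change in *10xBulge*. A star marks the 12 pairs called, the *10xBulge* points of *Acsbg2*, *Gapdhs*, *Aldoart1* and *Pgk2* lie furthest to the left, and *10xPerf* points stay near wild type apart from those of *Cox7b2* and *Eno4*.

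In *10xPerf* none of the 40 genes was called against wild type (limma, adjusted p under 0.1), where 0.492% of all genes were called lower and 0.467% higher. At an unadjusted p under 0.05 there was 1, *Eno4* (log2 fold change -1.23 ± 0.51 (SE), adjusted p = 0.761), where 1448 of 23782 genes were at that level. None of the 18 ratios was called, with changes between -1.99 and 0.56 and 1 at an unadjusted p under 0.05. For ratios the share of all genes at that level was not counted. The lowest, *Cox7b2* to *Cox7b*, had an adjusted p of 0.107. It rested on wild-type library N1, where *Cox7b* was lowest at 77.0 normalized counts, in that its log2 change was -1.21 without N1 and -2.76 without N2 (adjusted p = 0.547 and 0.00818).

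Against *10xPerf*, *10xBulge* had 7 members lower and 9 higher, where 24.1% of all genes were lower and 12.9% higher. Both comparisons share the *10xBulge* libraries. The 7 lower genes were those called lower against wild type other than *Eno4*, whose log2 fold change against *10xPerf* was -0.58 ± 0.51 (SE), adjusted p = 0.432. The 9 higher genes included *Gapdh* (log2 fold change 1.19 ± 0.44 (SE), adjusted p = 0.0765) and *Slc2a1* (1.43 ± 0.42 (SE), adjusted p = 0.0331), which were not called against wild type. Of the 9 higher calls none was kept without *10xPerf* library N3, 5 without N4, 4 without *10xBulge* library N5 and 8 without N6, where 1.96%, 7.35%, 6.99% and 14.3% of all genes were called higher. With members newly called, the number higher was 6 without N4 and 11 without N6, while the number of lower calls was 11 without N5 and 7 without any of the others.

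The *10xBulge* libraries differed from each other in a way that touches these values. N5 was above N6 in 34 of the 40 members, with a median log2 difference of 0.63 and differences over 1 in 13 of them. The largest was in *Acsbg2*, at 2.21, and the most negative in *Cox7b2*, at -0.59. In wild type N1 was above N2 in 22 members and in *10xPerf* N3 was above N4 in 4. Across 13678 genes, the log2 difference between the libraries of a genotype followed the GC content of the transcript, with Spearman's rho = 0.518 in *10xBulge*, 0.589 in wild type and -0.268 in *10xPerf*, a description over genes that share their libraries. Removing that trend gave 12 members higher and 9 lower, where 20.0% of all genes were higher and 24.3% lower, and *Cox6b2* was then called lower and *Gapdh* higher. *Gapdhs*, *Acsbg2* and *Aldoart1* were the lowest members in either library.

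**Figure D4:**
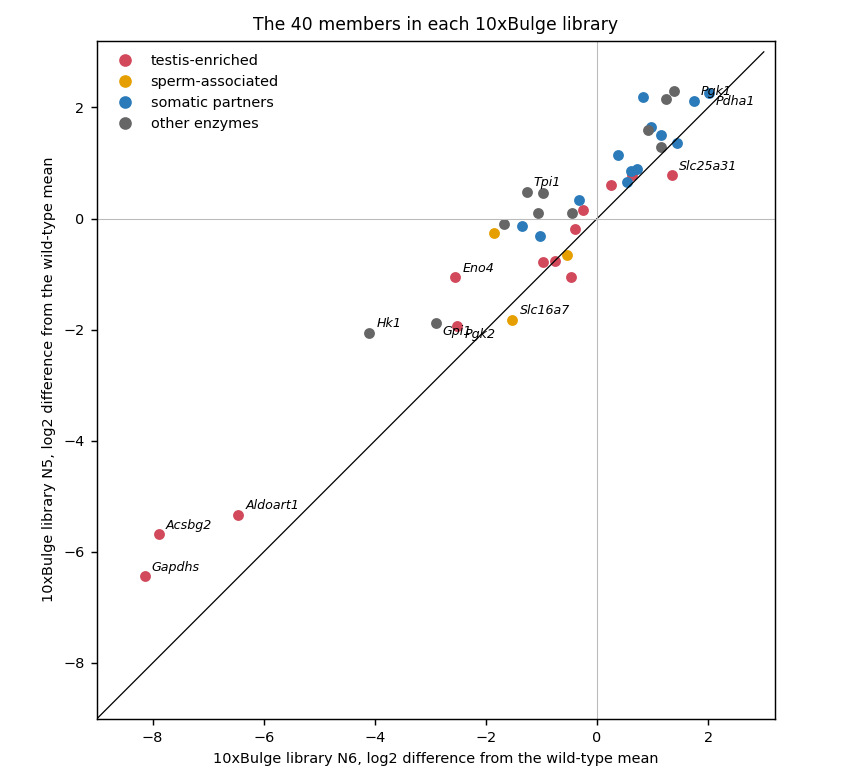
Each point is 1 of the 40 members, placed by its log2 difference from the wild-type mean in *10xBulge* library N6 (horizontal axis) and N5 (vertical axis), coloured by group, with a line where both are equal. Most points (34 of 40) lie above the line, and *Gapdhs*, *Acsbg2* and *Aldoart1* stand apart at the lower left.

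The rest of the pathway, taken from lists of genes beside the 40, also held calls in both directions, to be read beside the 11.4% of all genes called higher and 23.0% called lower. Of 27 other genes of glycolysis and pyruvate metabolism, 23 were tested, 6 were higher and 3 lower in *10xBulge*, with a median log2 fold change of -0.077. Among the lower ones were *Aldoart2*, at 23267 and 13601 in wild type and 487 and 216 in *10xBulge* (-5.77 ± 0.49 (SE), adjusted p = 3.01e-05), and *Mpc2*, of the mitochondrial pyruvate carrier, at 10690.4 and 7162 and 4266 and 3883 (-1.10 ± 0.42 (SE), adjusted p = 0.0835). The higher ones with the smallest p were *Pdp2*, a phosphatase that activates pyruvate dehydrogenase, from 279 and 326 to 1158 and 807 (1.68 ± 0.40 (SE), adjusted p = 0.0143), and, of the kinases that inhibit that enzyme, *Pdk4* from 108 and 100.03 to 359.9 and 313 (1.68 ± 0.45 (SE), adjusted p = 0.0234) and *Pdk1* from 456 and 971 to 2653 and 1879 (1.75 ± 0.48 (SE), adjusted p = 0.0269). The other phosphatase and kinases of the list, named after their values were seen, were not called, with log2 fold changes of 0.51 for *Pdp1*, -0.92 for *Pdk2* and -0.81 for *Pdk3* (adjusted p = 0.374, 0.175 and 0.137). Without N5 *Pdk2* was called lower (log2 fold change -1.48, adjusted p = 0.0359), and with upper quartile scaling or the GC trend removed both *Pdk2* and *Pdk3* were. Of 11 other genes of hexose, lactate and glycerol phosphate metabolism, 10 were tested, 2 were higher and 1 lower, with a median of 0.39. The lower gene was *Gpd2*, the mitochondrial glycerol-3-phosphate dehydrogenase, at 15112 and 18684 in wild type, 25635 and 18386 in *10xPerf*, then 240.4 and 233 in *10xBulge* (-6.14 ± 0.39 (SE), adjusted p = 7.8e-06), a change as large as that of *Aldoart1*. The higher ones were *Slc2a2*, the glucose transporter GLUT2, at 48.1 and 16.6 and 99.0 and 131 (1.96 ± 0.61 (SE), adjusted p = 0.0437), and *Gpd1l* at 699 and 648 and 2026 and 1277 (1.26 ± 0.45 (SE), adjusted p = 0.0684). Of 16 other genes of cytochrome c oxidase and the carriers, 14 were tested, 4 were higher and none lower, with a median of 0.18. The 4 were the partners *Cox7b*, *Slc25a4*, *Slc25a5* and *Acsbg1*, and no other gene of this list was called. The list did not include the mitochondrially encoded oxidase subunits. In *10xPerf* no gene of the 3 lists was called, and 1 was at an unadjusted p under 0.05 (limma), beside 1448 of 23782 genes at that level.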

How the data were processed

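Whole-testis RNA-seq libraries of 3 genotypes (2 each) were used, and the PIWI immunoprecipitation libraries were not analysed here. Per the study's methods the authors quantified reads with salmon on GRCm39 transcripts and deposited a signal per gene, read counts divided by DESeq2 size factors. The authors' own log2 fold changes and adjusted p-values from DESeq2, deposited beside them, were not used. The deposited values are not whole counts, so log2(value + 1) was tested with limma 3.58.1 (R 4.3.3, trend) over genes at 10 or more in at least 2 libraries, with all 6 libraries in one fit, Benjamini-Hochberg adjustment over all genes and a threshold of 0.1. Fold changes are on that log2 scale, which understates changes of low genes. For ratios the partner's log2 value was subtracted from every gene in each library and the fit repeated. The partner's spread then recurs in all genes, so the standard errors, intervals and p-values of ratios can overstate the certainty. Transcript lengths and GC content came from GENCODE transcripts of GRCm38, found for all 40 members. Every member is named, and of each pathway list at most the 3 genes of lowest p that rose and the 3 that fell. Of the pathway lists 1 gene that this rule names is not reported here. The fit was tested on simulated data. Members and lists were chosen with earlier results of these data known. Libraries come from different mice per the labels. Intervals from 2 libraries rest on the spread pooled over genes.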

Additional observations from a re-analysis of the deposited data

How the results depend on the processing

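Each *10xBulge* comparison rests on 2 libraries a genotype, so calls near the threshold are unstable. The settings tried were other scalings, filters, pseudocounts, a stricter threshold, no variance trend, removal of the GC trend, a fit of only the genotypes compared, and leaving out each library. The 11 members called higher against wild type became 17 with library totals, 6 at an adjusted p under 0.05, 7 when the fit held the 2 genotypes alone, and between 3 and 10 with a library left out. The number of all genes called higher moved as well. It was 5778 of 23782 with library totals, 1370 of 23782 at the stricter threshold and 1716 of 22796 with 2 genotypes, against 2712 of 23782. The number of members lower stayed between 8 and 10 in the settings that kept every library. Over all genes tested it ran from 2926 of 18064 to 5919 of 23782. The number of members lower differed little between those settings. It also changed when a library was left out. Against *10xPerf*, library totals gave 15 members higher, where 5108 of 23782 genes were higher. Leaving out a library moved the counts of members in that comparison too, as given above. The 0 of 18 ratios called in *10xPerf* became 1 (*Cox7b2*/*Cox7b*) with the filter of 10 in every library, with the pseudocount of 10 and with the GC trend removed, and was between 0 and 1 with a library left out. Library scaling cannot change a ratio, so it was not tried there.

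Members that were not called also changed sign. With library totals the log2 fold changes in *10xBulge* became 0.34 for *Ldhc*, 0.086 for *Gk2*, 0.38 for *Ldha*, 0.20 for *Eno2* and 0.12 for *Pfkm*, and with the GC trend removed 0.034 for *Ldhc* and 0.087 for *Ldha*. With a library left out they ranged from -0.27 to 0.18 for *Ldhc*, from -0.76 to 0.17 for *Gk2*, from -0.33 to 0.33 for *Ldha*, from -1.34 to 1.00 for *Eno2*, from -1.27 to 0.48 for *Tpi1*, from -0.98 to 0.46 for *Pfkm*, from -1.06 to 0.11 for *Pfkp* and from -0.29 to 1.20 for the partner *Gk*. *Eno4* against *10xPerf* ranged from -1.32 to 0.17. The log2 ratio changes ranged from -0.42 to 0.32 for *Ldhc*/*Ldha*, from -0.69 to 0.045 for *Slc25a31*/*Slc25a4* and from -1.60 to 0.098 for *Gk2*/*Gk*. The cause of these shifts was not tested. No paired analysis was possible because the library numbers are not shared between genotypes.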
